A study of Mus musculus with 7 samples.

Results

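The HOX cluster genes are the 40 rows of the 7 deposited count tables whose symbol begins with Hoxa, Hoxb, Hoxc or Hoxd, of 19415 genes listed in any table. They comprise 36 coding genes and 4 antisense transcripts (Hoxaas3, Hoxb3os, Hoxb5os and Hoxd3os1), and a gene not listed in a table was counted as 0 there. The tables hold single-cell RNA counts from 7 mouse tumours of 6 animals, made by droplet sequencing of 3′ transcript ends. All animals were Rosa26-creERT2::Smarcb1 fl/fl, a strain in which a ubiquitously expressed, tamoxifen-dependent Cre recombinase removes floxed Smarcb1, which encodes an invariant member of SWI/SNF remodelling complexes. Their mothers received 1 tamoxifen dose of 50 mg/kg at 6.5 days post coitum, and no Smarcb1-intact control tissue was analysed here. The labels assign the tumours to the MYC or the SHH subgroup of atypical teratoid rhabdoid tumour (ATRT), an embryonal brain tumour. MYC replicates 1 and 5 lay in the basal cerebrum (12 and 27 weeks of age), MYC replicates 2 and 4 at the trigeminal nerve (19 and 21 weeks) and MYC replicate 3 in the lateral cerebellum (19 weeks). SHH replicates 1 and 2 lay in the striatum/subventricular zone (14 and 16 weeks). MYC replicates 2 and 3 share a number in their titles and were counted as 1 animal, which leaves 4 MYC and 2 SHH animals. No site was shared by MYC and SHH tumours, so effects of site and of subgroup cannot be told apart. The labels do not otherwise say which tumours share a mouse.

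HOX genes encode homeodomain transcription factors that give cells their position along the head-to-tail axis. They lie in 4 clusters, and their order on the chromosome follows the order in which they are used: low paralog numbers in the hindbrain, high numbers in the posterior trunk and, for HOXA and HOXD, in limbs. Forebrain and midbrain normally keep the clusters silent under Polycomb repression, which SWI/SNF complexes oppose. In the GENCODE annotation of GRCm38 (the assembly mm10 names) HOXA spans chr6:52155590-52260880, HOXB chr11:96194316-96368256, HOXC chr15:102921103-103036852 and HOXD chr2:74668310-74765142. Of the 39 annotated coding HOX genes, 3 (Hoxa6, Hoxa13 and Hoxd1) were listed in no table, and 2 (Hoxa7 and Hoxb4) were listed in all 7. A table lists a gene only if at least 3 of its barcodes hold it, so a 0 can hide UMIs (single captured molecules) in 1 or 2 barcodes.

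HOX expression was read in cells without a UMI of Ptprc, the pan-leukocyte antigen CD45. These numbered 138 to 10243 per library and held 1587650 to 73328197 UMIs. Cells without Ptprc still held other haematopoietic UMIs: between 24.8% (SHH replicate 2) and 84.1% (MYC replicate 4) had UMIs of at least 2 of 12 haematopoietic markers. Values in cells with at most 1 of the 12 markers are therefore given beside the main ones. This gate was drawn from all analysed cells, and Ptprc is 1 of the 12 markers. A cell whose only marker was Ptprc is thus included, so these cells are not a subset of the Ptprc-negative cells. MYC replicate 2 also held 46010 CPM (UMIs scaled to a total of 1000000 per library) of 6 erythroid markers, against 0 to 238 CPM in the other libraries. Smarcb1 itself was at 3.86 to 8.38 CPM in MYC replicates 1, 3 and 5 and SHH replicate 2, and at 20.1 CPM in MYC replicate 4. It reached 42.4 CPM in MYC replicate 2 and 36.0 CPM in SHH replicate 1, against 23.2 to 49.4 CPM in cells with Ptprc over all 7 libraries. Whether the 3′ tag lies in the deleted part is not given in the sources used here. At most 76 barcodes were shared by a pair of libraries.

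Promoters of 4 HOX genes, 1 from each cluster, are shown because these clusters marked different tumours. They are the 250 bases before the transcription start in RefSeq (GRCm38.p6), 5′ to 3′ on the strand of the gene, with CpG pairs in capitals. Hoxa5 (chr6:52204588-52204837, minus strand) led in SHH replicate 2, and Hoxd9 (chr2:74697513-74697762, plus strand) led in SHH replicate 1. Hoxb4 (chr11:96318017-96318266, plus strand) was present in every library, and Hoxc4 (chr15:103034145-103034394, plus strand) was the HOXC gene matched.
Hoxa5: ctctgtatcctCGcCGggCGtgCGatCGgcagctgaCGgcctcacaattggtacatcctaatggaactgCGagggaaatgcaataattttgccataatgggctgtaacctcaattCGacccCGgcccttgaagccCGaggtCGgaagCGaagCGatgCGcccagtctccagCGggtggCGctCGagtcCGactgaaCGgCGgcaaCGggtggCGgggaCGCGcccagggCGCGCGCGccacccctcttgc
Hoxb4: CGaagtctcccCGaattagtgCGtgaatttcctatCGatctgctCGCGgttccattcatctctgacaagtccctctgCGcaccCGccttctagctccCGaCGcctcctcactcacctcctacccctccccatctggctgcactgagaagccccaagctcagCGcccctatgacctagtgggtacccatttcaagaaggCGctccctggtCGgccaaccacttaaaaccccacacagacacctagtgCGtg
Hoxc4: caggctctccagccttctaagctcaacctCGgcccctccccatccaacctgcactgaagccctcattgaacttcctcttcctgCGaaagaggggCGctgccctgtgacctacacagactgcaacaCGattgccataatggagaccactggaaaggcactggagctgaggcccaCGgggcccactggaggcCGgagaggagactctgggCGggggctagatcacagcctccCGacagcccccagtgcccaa
Hoxd9: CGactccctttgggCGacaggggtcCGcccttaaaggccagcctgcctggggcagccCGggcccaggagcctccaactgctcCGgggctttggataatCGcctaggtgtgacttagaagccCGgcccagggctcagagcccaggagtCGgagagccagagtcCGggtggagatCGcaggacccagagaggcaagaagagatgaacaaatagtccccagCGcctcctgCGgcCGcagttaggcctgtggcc
These windows held 28 (Hoxa5), 14 (Hoxb4), 8 (Hoxc4) and 13 (Hoxd9) CpG pairs. The RefSeq table matched 21 of the 40 members, with 23 windows; their median was 12 CpG pairs (range 2 to 31), against 6 over all 32851 windows used here. Searched on both strands, the CDX-type motif TTTATG was in 5 of the 23 HOX windows (21.7%; 10.8% of all), and the PBX-HOX motif TGATNNAT in 4 (17.4%; 7.68% of all). The TATA box TATAAA was in 4 (17.4%; 12.4% of all), and CATAAA, which is TTTATG on the other strand, differs from it in the first letter alone. A match is a description of letters, not of binding.

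The 7 tumours carried different HOX clusters. HOXC genes were present in all 5 MYC libraries and nearly absent from both SHH libraries. SHH replicate 1 expressed HOXD and SHH replicate 2 expressed HOXA and HOXB, although both lay at 1 site. HOXC gave the largest share of coding HOX UMIs in MYC replicates 1, 4 and 5. HOXA led in MYC replicate 2 (64.4%, against 24.3% for HOXC) and HOXB in MYC replicate 3 (44.0%, against 42.3%). The summed level of all 40 rows was 222, 116, 479, 177 and 22.7 CPM in MYC replicates 1 to 5, and 47.6 and 207 CPM in SHH replicates 1 and 2. By animal the mean was 173 ± 108 CPM (SD, n = 4) in MYC and 128 ± 113 CPM (SD, n = 2) in SHH, so the total did not separate the subgroups. Each 3′ tag marks 1 molecule, so CPM can be compared between genes without a length correction. In bulk sums of this kind, fewer expressing cells and less RNA per cell cannot be told apart.

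**Figure D1:**
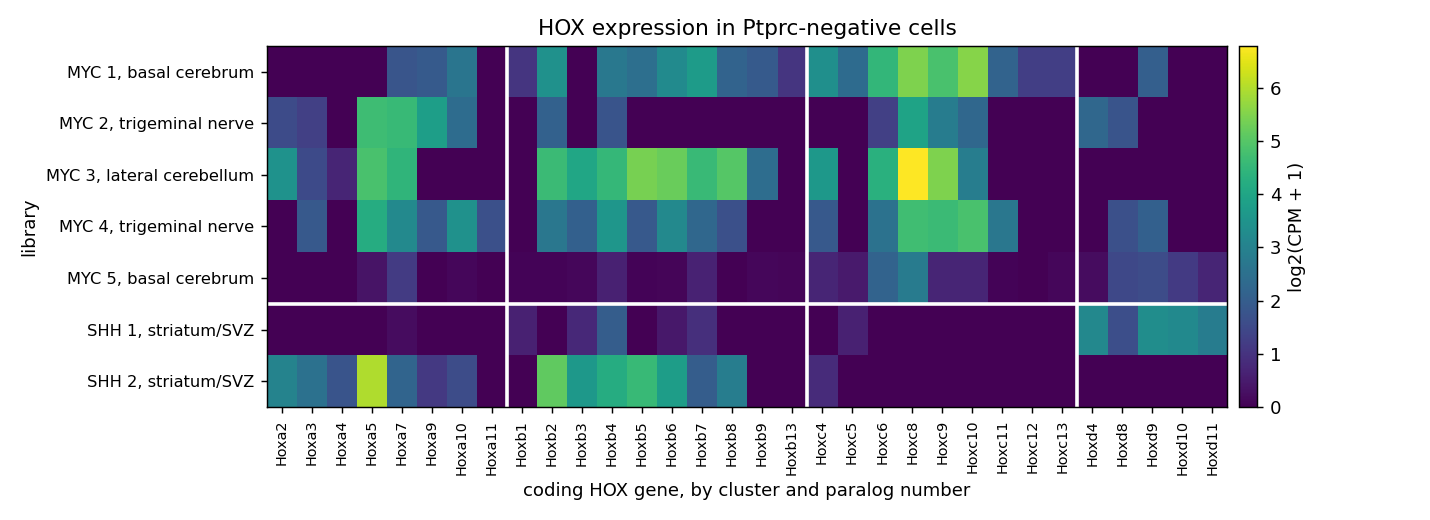
Level of the coding HOX genes that reached at least 1 CPM in a library, log2(CPM + 1), in Ptprc-negative cells of the 7 libraries (rows), with genes (columns) ordered by cluster and paralog number and white lines between clusters and subgroups. The HOXC block is bright in MYC rows and the HOXD block in SHH 1. The HOXA block is bright in SHH 2, MYC 2 and MYC 3, and the HOXB block in SHH 2 and MYC 3.

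HOXC, summed over its 9 coding members, stood at 159, 25.7, 190, 89.5 and 11.9 CPM in MYC replicates 1 to 5. The 2 SHH libraries had 0.529 and 0.798 CPM, which is 3 UMIs of Hoxc5 and 4 of Hoxc4. All MYC libraries lay above both SHH libraries. HOXC gave 54.1 ± 13.9% of coding HOX UMIs in MYC animals (n = 4) and 0.838 ± 0.598% in SHH animals (n = 2). HOXD ran the other way in 1 tumour: SHH replicate 1 had 35.8 CPM from 8 of 8 listed members, and 85.3% of its coding HOX UMIs, while SHH replicate 2 had 0 UMIs. In MYC libraries HOXD ranged from 0 to 6.46 CPM. HOXA stood at 83.6 CPM in SHH replicate 2 and 0.176 CPM (1 UMI) in SHH replicate 1. HOXB stood at 108 and 5.46 CPM in the same 2 libraries.

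**Figure D2:**
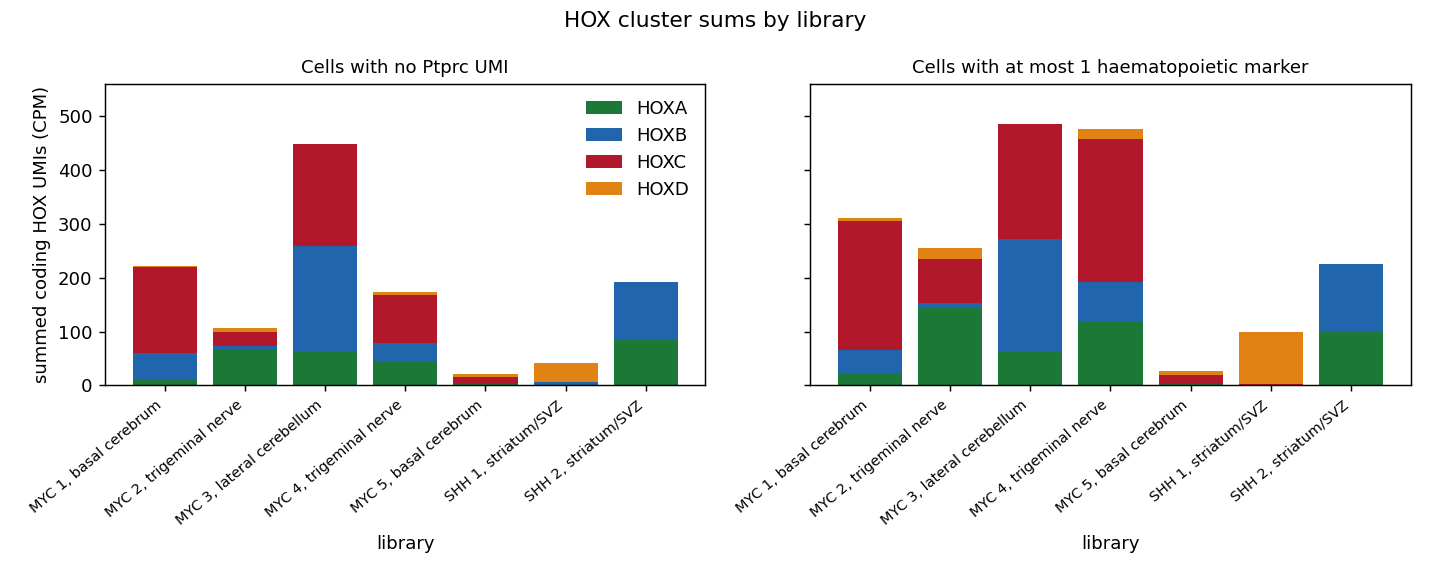
Summed CPM of the coding genes of each HOX cluster (stacked colours) per library, in cells without a Ptprc UMI (left) and in cells with at most 1 of 12 haematopoietic markers (right). HOXC in SHH 1 and 2 is 0.529 and 0.798 CPM on the left, and HOXD makes up most of SHH 1 in both panels.

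In cells with at most 1 haematopoietic marker the HOX sum was larger in each of the 7 libraries. The sum of all 40 rows was 311, 270, 521, 480 and 27.9 CPM in MYC replicates 1 to 5, and 113 and 243 CPM in the SHH libraries. HOXC was 171 ± 112 CPM over MYC animals (n = 4) and 0.692 ± 0.0585 CPM over SHH animals (n = 2). HOXD in SHH replicate 1 reached 97.6 CPM and stayed at 0 in SHH replicate 2.

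Hoxc6, Hoxc8, Hoxc9 and Hoxc10, trunk-level genes of the middle of the cluster, gave most of the HOXC level in every MYC animal. Hoxc8, a patterning gene of the thoracic skeleton and brachial motor neurons, stood at 43.9, 55.3, 24.9 and 6.03 CPM in the 4 MYC animals (replicate 1, replicates 2 and 3, replicate 4, replicate 5) and at 0 UMIs in both SHH animals. Hoxc6 stood at 21.4, 8.95, 4.88 and 3.49 CPM in the same MYC animals and at 0 in SHH. Hoxc9, which sets thoracic motor neuron identity, stood at 27.7, 22.2, 23.9 and 0.641 CPM, and at 0 in SHH. MYC replicate 5 was the lowest animal for each, and the groups did not overlap. Hoxc10, a gene of the lumbar level and hindlimb, stood at 46.3, 4.88, 27.6 and 0.627 CPM and at 0 in SHH; its annotated exons overlap those of Hoxc5, so the split between that pair is uncertain. Set against a floor of 3 counts over both SHH animals (0.281 CPM), the MYC mean was 116-fold higher for Hoxc8, 70.8-fold for Hoxc10, 66.3-fold for Hoxc9 and 34.5-fold for Hoxc6. Neither SHH table lists these genes, and each could hide UMIs in 1 or 2 barcodes, so these folds are not strict lower bounds. These 4 were the members with every MYC animal above both SHH animals, an order that 7.66% of the 12985 genes tested also had.

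**Figure D3:**
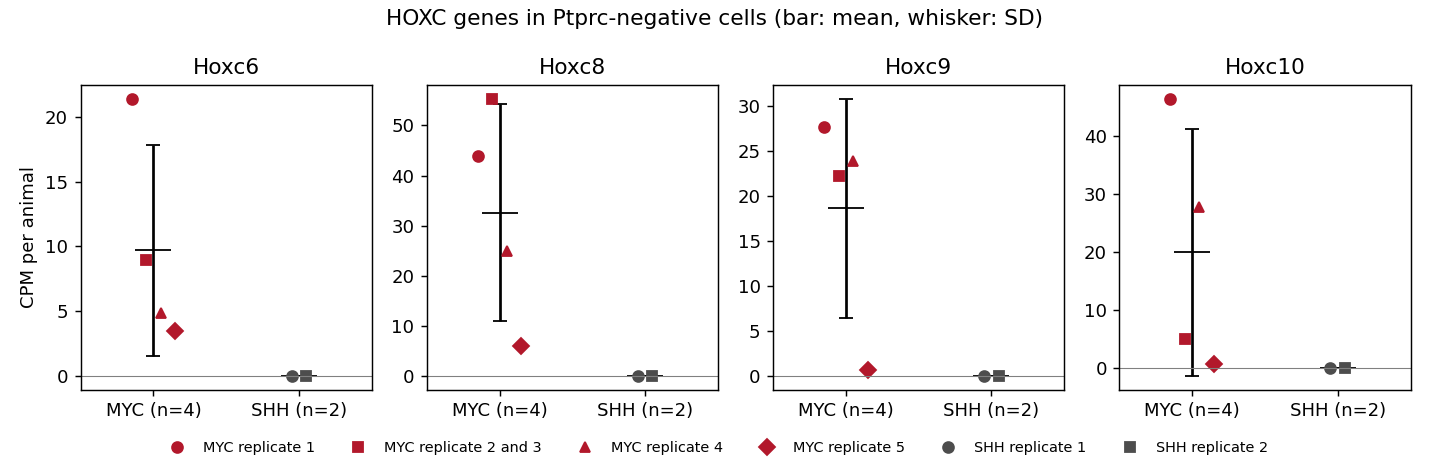
CPM of Hoxc6, Hoxc8, Hoxc9 and Hoxc10 in Ptprc-negative cells of each animal (points), with the group mean (bar) and SD (whisker) for 4 MYC and 2 SHH animals. Both SHH animals are at 0 in each panel, and MYC replicate 5 is the lowest MYC animal in each.

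No HOX row passed the edgeR quasi-likelihood test between subgroups, in which 43 of 12985 genes (0.331%) passed at an adjusted p of 0.05. Of the 40 members 21 passed the filter on low counts, and 4 of these had an unadjusted p below 0.05, as did 1684 of the 12985 genes. The adjusted p was 0.108 for Hoxc8, 0.128 for Hoxc6, 0.218 for Hoxc9 and 0.279 for Hoxc10. In cells with at most 1 haematopoietic marker Hoxc8 (adjusted p = 0.0453) and Hoxc6 (0.0472) passed the edgeR test, where 403 genes did. DESeq2 on the main sums called all 4 among 922 genes, with adjusted p from 1.46e-06 (Hoxc8) to 0.000573 (Hoxc10). Every fit that left out 1 animal called 0 HOX rows, with 0 to 3 calls over all genes. These p-values measure the spread between 4 and 2 animals.

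The other HOXC members were sparser. Hoxc4, the most anterior member, stood at 9.48, 4.88, 2.71 and 0.627 CPM in the MYC animals and at 0 and 0.798 CPM in the SHH animals, which overlapped. Hoxc11, Hoxc12 and Hoxc13, the posterior end, had 23, 4 and 10 UMIs over all MYC animals and 0 in SHH, and Hoxc5 had 41 and 3; only MYC replicate 1 held all 9 HOXC members.

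Among HOXA genes, Hoxa5 and Hoxa7 gave the highest levels. Hoxa5, which patterns the cervical and upper thoracic region and the lung, stood at 0, 24.8, 27.7, 17.3 and 0.286 CPM in MYC replicates 1 to 5, and at 0 and 62.4 CPM in the SHH libraries. SHH replicate 2 was the highest of all 7, and MYC replicate 1 and SHH replicate 1 were at 0. Hoxa7 stood at 2.46, 22.9, 20.8, 8.13 and 1.27 CPM in MYC and at 0.176 and 3.59 CPM in SHH. Neither gene separated the subgroups, with adjusted p = 0.864 for Hoxa5 and 0.558 for Hoxa7 in edgeR. The remaining HOXA members reached at most 9.76 CPM in an animal (Hoxa10 in MYC replicate 4). The hindbrain and neck genes Hoxa3 and Hoxa4 were highest in SHH replicate 2, at 4.79 and 2.39 CPM. Hoxa2, a hindbrain gene, was at 10.1 CPM in MYC replicate 3, 7.18 CPM in SHH replicate 2 and 1.91 CPM in MYC replicate 2, and at 0 elsewhere. The antisense transcript Hoxaas3 reached 9.18 CPM in SHH replicate 2. Hoxa11 had 4 UMIs over all MYC animals and 0 in SHH.

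HOXB genes of paralogs 2 to 8 were expressed together in SHH replicate 2 and MYC replicate 3. Hoxb2, which acts in hindbrain segments, stood at 9.83, 3.33, 23.9, 5.42 and 0.0409 CPM in MYC replicates 1 to 5 and at 0 and 34.1 CPM in SHH replicates 1 and 2. Hoxb3 was at 0, 0, 15.1, 3.25 and 0.0955 CPM, and at 0.705 and 11.4 CPM. Hoxb4 was at 5.62, 2.38, 22.0, 10.8 and 0.532 CPM, and at 3.0 and 17.4 CPM. SHH replicate 2 and MYC replicate 3 were the highest 2 libraries for each of these 3 genes. Hoxb5 was at 4.56, 0, 40.9, 2.71 and 0.0545 CPM, and at 0 and 22.9 CPM. Hoxb6 was at 8.42, 0, 36.5, 8.13 and 0.0682 CPM, and at 0.353 and 12.8 CPM. Hoxb7 was at 12.3, 0, 23.3, 3.80 and 0.559 CPM, and at 0.881 and 2.99 CPM. MYC replicate 3 was the highest library for these 3, and MYC replicate 2, from the same animal, was at 0. Hoxb8 was at 3.51, 0, 30.9, 2.17 and 0 CPM, and at 0 and 6.38 CPM. The antisense transcript Hoxb5os was at 23.3 CPM in MYC replicate 3, 1.60 CPM in SHH replicate 2 and 0 elsewhere. It overlaps exons of Hoxb5 on the other strand, and whether counting used strand is not given in the sources used here. Hoxb1, Hoxb9 and Hoxb13 had 6, 22 and 8 UMIs over all MYC animals and 3, 0 and 0 in SHH, and Hoxb3os reached at most 4.39 CPM (SHH replicate 2). The subgroups overlapped for every HOXB member.

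The HOXD genes of SHH replicate 1 stayed below 10 CPM each and are named here after their values were seen. Hoxd9 stood at 8.99 CPM, Hoxd10 at 8.28 CPM, Hoxd4 at 7.93 CPM and Hoxd11 at 6.17 CPM; these are genes of the posterior trunk and limbs, apart from Hoxd4, a hindbrain and neck gene. All 4 were at 0 in SHH replicate 2, where 3 counts are 0.598 CPM. MYC replicate 5 was the other library with several of them, at 1.98 (Hoxd9), 1.21 (Hoxd10), 0.177 (Hoxd4) and 0.627 CPM (Hoxd11). SHH replicate 1 and MYC replicate 5 were also the only libraries sequenced in 2 runs. They had the lowest sums of all 40 HOX rows (47.6 and 22.7 CPM). Whether the runs had a part in these levels was not tested. Hoxd3 and Hoxd12 had 5 UMIs each, all in SHH replicate 1. Hoxd8 and Hoxd13 had 140 and 50 UMIs over all MYC animals and 12 and 3 in SHH, and the antisense transcript Hoxd3os1 reached 5.11 CPM in SHH replicate 1. Hoxd4 shares annotated exons with Hoxd3, so that pair is uncertain.

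By paralog group, groups 4 to 8 had the largest mean in both subgroups, but not in SHH replicate 1, where groups 9 to 13 led. Groups 1 to 3 summed to 57.5 CPM in SHH replicate 2 and 2.12 CPM in SHH replicate 1, against 12.1 ± 10.5 CPM in MYC animals (n = 4). Groups 4 to 8 summed to 102 ± 71.6 CPM in MYC and 73.3 ± 82.5 CPM in SHH, where the 2 animals had 15.0 and 132 CPM. Groups 9 to 13 summed to 95.5, 38.8, 74.8 and 6.15 CPM in the MYC animals, and to 24.9 and 3.19 CPM in the SHH animals. The animals of the 2 subgroups overlapped in all 3 sums. Group 8 alone did not overlap, at 47.4, 70.0, 29.3 and 7.81 CPM in MYC animals and 2.12 and 6.38 CPM in SHH animals, and in MYC most of it was Hoxc8.

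Within MYC, basal cerebrum and trigeminal nerve libraries were compared (2 against 2), without MYC replicate 3. Both SHH libraries were in the fit as a site of their own. The filter on low counts and the estimate of the spread therefore also used them. With the 4 MYC libraries alone, 0 of 10623 genes and 0 of 10 HOX rows tested passed. No gene passed edgeR's quasi-likelihood test (0% of 12747; 1236 at an unadjusted p below 0.05), and no HOX row of 21 tested did; DESeq2 called 350 genes and 0 HOX rows. Hoxa3, Hoxa5, Hoxa7 and Hoxaas3 lay below both trigeminal libraries in both basal libraries, an order that 14.8% of the genes tested shared, and had unadjusted p between 0.0390 and 0.0442. Hoxa5 was at 0 and 0.286 CPM in the basal libraries and at 24.8 and 17.3 CPM in the trigeminal ones (log2 fold change -6.41 ± 2.44 (SE), adjusted p = 0.503). Hoxa7 was at 2.46 and 1.27 CPM against 22.9 and 8.13 CPM (log2 fold change -3.22 ± 1.24 (SE), adjusted p = 0.504). Without the filter on low counts, edgeR called Hoxa5 (adjusted p = 7.00e-09) among 959 genes.

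The trigeminal and lateral cerebellar tumours of 1 animal carried different HOX sets. HOXA stood at 68.1 CPM in the trigeminal and 61.1 CPM in the lateral tumour (ratio 0.897, 95% exact interval 0.686 to 1.17). HOXB stood at 5.72 and 197 CPM (ratio 34.5, 19.5 to 67.5) and HOXC at 25.7 and 190 CPM (ratio 7.37, 5.50 to 10.0). Within HOXA the members differed: Hoxa5 and Hoxa7 had ratios of 1.12 (0.731 to 1.70) and 0.909 (0.565 to 1.45). Hoxa9 was at 12.9 CPM in the trigeminal tumour and at 0 in the lateral one. That is 6.81-fold lower against a floor of 3 counts, and the upper 95% exact limit of its ratio was 0.194. Against the same floor of 3 counts, Hoxb5 was 28.6-fold and Hoxb8 21.6-fold higher in the lateral tumour. The lower 95% exact limits of their ratios were 22.6 and 16.9. A gene at 0 could hide UMIs in 1 or 2 barcodes, so the folds against the floor are not strict lower bounds. These intervals compare 2 libraries and cover counting error only. In cells with at most 1 haematopoietic marker HOXC was 81.4 CPM in the trigeminal and 212 CPM in the lateral tumour, and HOXB was 9.58 and 210 CPM. There HOXA also differed, at 144 CPM (95% Poisson interval 116 to 177) in the trigeminal and 62.5 CPM (48.8 to 78.9) in the lateral tumour. The trigeminal library held the erythroid RNA given above, whose part in these ratios was not tested.

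Libraries of 1 site or 1 animal were not the pairs most alike in HOX profile. Over the 36 coding genes, Pearson's r of log2(CPM + 1) was 0.40 for the pair from 1 animal, 0.64 for both trigeminal libraries, 0.44 for both basal cerebrum libraries and -0.20 for both SHH libraries. MYC replicates 1 and 4, from different sites, had the highest value (0.70), and MYC replicate 3 with SHH replicate 2 had 0.62. The points are neighbouring genes of 4 clusters in libraries of unequal depth, so these values are descriptive.

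The share of cells with a HOX UMI was above that of Ptprc-positive cells in the Ptprc-negative cells of all 7 libraries. In Ptprc-positive cells all 40 rows summed to 41.1, 22.3, 125, 28.4 and 15.4 CPM in MYC replicates 1 to 5, and to 8.15 and 23.6 CPM in SHH. After thinning each cell to 1000 UMIs, 14.7, 11.6, 35.5, 5.97 and 1.96% of Ptprc-negative cells in MYC replicates 1 to 5 held a HOX UMI, and 3.67 and 13.9% in SHH. In Ptprc-positive cells the shares were 3.54, 2.29, 4.44, 1.35 and 1.43%, and 1.10 and 1.75%. Unthinned, the Ptprc-negative shares were 46.1, 32.8, 71.0, 9.98 and 9.67%, and 6.74 and 30.8%. In MYC replicate 5 the thinned intervals overlapped (1.71 to 2.25% and 1.07 to 1.91%). In the other MYC libraries and both SHH libraries they did not overlap. These intervals treat cells as independent and cover counting error only, so they do not test for a difference. In MYC replicate 5 all 40 rows summed to 22.7 CPM (Poisson interval 21.6 to 23.8) in Ptprc-negative cells. The sum was 15.4 CPM (13.7 to 17.3) in its Ptprc-positive cells. HOXA (1.70 against 1.02 CPM), HOXC (11.9 against 6.08) and HOXD (6.46 against 2.80) were higher in its Ptprc-negative cells. HOXB was lower there, at 1.55 against 4.52 CPM.

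**Figure D4:**
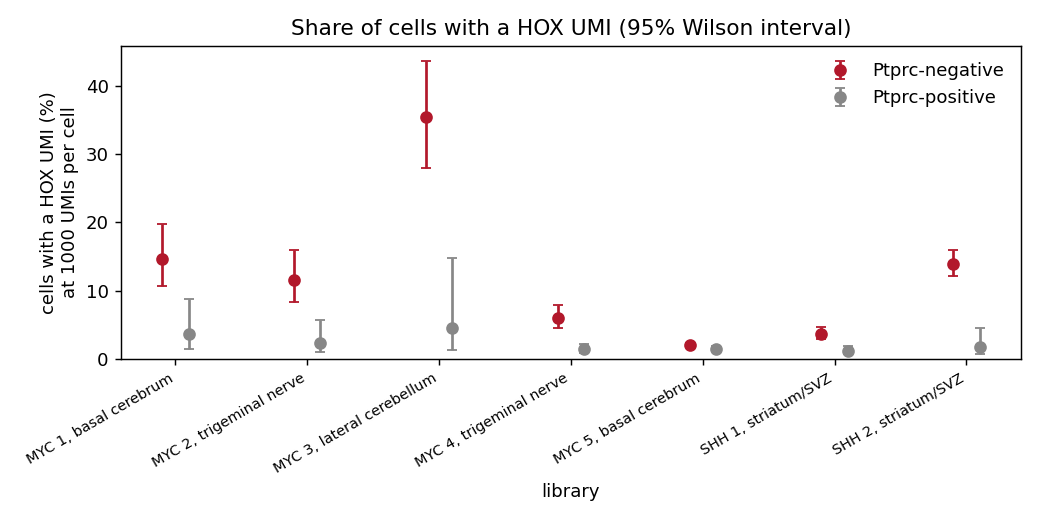
Percent of cells with at least 1 HOX UMI after thinning to 1000 UMIs per cell, for Ptprc-negative (red) and Ptprc-positive (grey) cells of each library, with 95% Wilson intervals. MYC 3 reaches 35.5% among Ptprc-negative cells, and MYC 5 is at 1.96% against 1.43%.

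Paired by animal over the 4 MYC animals, no gene passed edgeR's quasi-likelihood test between the 2 cell classes (0% of 12228, with 3425 at an unadjusted p below 0.05), and none of 18 HOX rows tested did. For 13 of those 18 the unadjusted p was below 0.05. Hoxa10, Hoxa7, Hoxb6, Hoxc10, Hoxc4, Hoxc6 and Hoxc8 were above the Ptprc-positive level in all 4 animals, an order that 26.8% of genes shared. Hoxc8 had a log2 fold change of 2.41 ± 0.55 (SE; adjusted p = 0.0684). Hoxb4, which also acts in blood stem cells, had 0.14 ± 0.89 (SE; adjusted p = 0.947), and in MYC replicate 5 it stood at 0.532 CPM in Ptprc-negative and 2.90 CPM in Ptprc-positive cells. DESeq2 called 6 HOX rows among 2102 genes, and edgeR on all 6 animals called 8 among 2752. Without MYC replicate 5, Hoxc8 and Hoxc9 passed edgeR among 69 genes.

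Cells with HOX UMIs differed in their other markers. In MYC replicate 5, 435 of 501 cells with a HOXC UMI (86.8%) had at least 3 of 6 fibroblast or mesenchymal markers (Col1a1, Col1a2, Col3a1, Dcn, Lum, Pdgfra), against 33.4% of all its Ptprc-negative cells. Of its cells with a HOXD UMI 49.6% did. In SHH replicate 1, 28 of 30 cells with a HOXB UMI had at least 2 haematopoietic markers, as did 1752 of all 2328 cells (75.3%) and 36 of 127 with a HOXD UMI (28.3%). Of those HOXD cells 36.2% had at least 3 of 6 neural progenitor markers (Fabp7, Sox2, Msi1, Sox11, Nes, Hes5), against 9.32% of all cells. In SHH replicate 2 the share was 50.7% of HOXA cells and 47.1% of HOXB cells, against 34.8% of all. Median depth was 6617 UMIs in HOXC cells and 6001 in all cells of MYC replicate 5, and 2697 in HOXD cells and 2228 in all cells of SHH replicate 1; the part of depth in these shares was not tested.

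Cells with at least 3 markers of 1 type, at most 1 of the other type and fewer than 2 vascular markers were also summed; the threshold of 3 was set after the data were seen. In MYC replicate 5, HOXC was at 34.0 CPM (95% Poisson interval 31.5 to 36.7) in 2593 fibroblast-marker cells and at 0.547 CPM (1 UMI, 0.0138 to 3.05) in 208 epithelial-marker cells. HOXD was at 7.93 CPM (6.73 to 9.28) and 4.92 CPM (2.25 to 9.35), which overlap. In MYC replicate 1 the intervals of the 2 classes were apart for HOXB alone. HOXB was at 190 CPM (128 to 271) in 17 epithelial-marker cells and 48.3 CPM (27.0 to 79.6) in 21 fibroblast-marker cells, while HOXC was at 291 and 344 CPM with overlapping intervals. In neural-progenitor-marker cells HOXD was at 95.4 CPM in SHH replicate 1 and at 0 in SHH replicate 2, where HOXA was at 100.5 and HOXB at 110 CPM. Without the limits on other markers, so that a cell could count in both classes, HOXC in MYC replicate 5 was at 27.1 CPM (25.3 to 29.1) in 3420 fibroblast-marker and 4.80 CPM (3.24 to 6.85; 30 UMIs) in 584 epithelial-marker cells. In MYC replicate 1, HOXB was then at 36.4 CPM (26.7 to 48.4) in 64 fibroblast-marker and 65.3 CPM (51.4 to 81.9) in 59 epithelial-marker cells. Each class has 1 library per value, and the intervals cover counting error only.

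**Figure D5:**
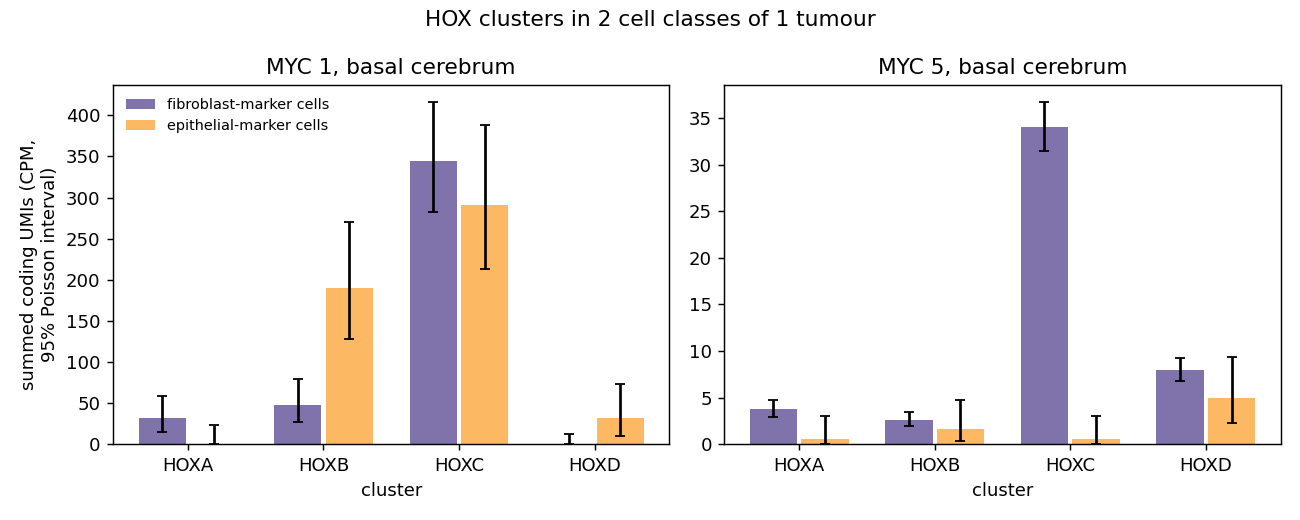
Summed coding CPM of each HOX cluster in fibroblast-marker (purple) and epithelial-marker (orange) cells of MYC replicate 1 (left) and MYC replicate 5 (right), with 95% Poisson intervals and separate axes. HOXC is at 34.0 against 0.547 CPM in MYC 5, and HOXB at 48.3 against 190 CPM in MYC 1.

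Single cells with UMIs of 2 clusters were common in some tumours and few in others. In MYC replicate 3, 73 of 85 cells with a HOXB UMI (85.9%) also held a HOXC UMI, against 20.8% of cells without HOXB, whose median depth was 3553 against 13366 UMIs. In MYC replicate 2, 67 cells held HOXA, 18 held HOXC and 6 held both; HOXC was in 8.96% of HOXA cells and in 5.97% of the others. In MYC replicate 5, 501 cells held HOXC, 357 held HOXD and 35 held both; HOXD was in 6.99% of HOXC cells and in 3.31% of the others. In SHH replicate 2, HOXB was in 27.8% of HOXA cells and 19.1% of the others. In MYC replicate 4, HOXC was in 63.6% of HOXA cells and 3.05% of the others, whose median depths were 6363 and 1471 UMIs. Cells with HOXA were also deeper than the others in MYC replicate 2 (8031 against 5005 UMIs) and SHH replicate 2 (4403 against 3170). Cells with HOXC were deeper in MYC replicate 5 (6617 against 5964). The part of depth in these shares was not tested.

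Genes that act with or upon HOX genes were read from fixed lists in the same subgroup test. Among HOX cofactors, 0 of 9 passed (median log2 fold change -0.30, against 0.06 over all genes tested); Meis2, which binds DNA with HOX proteins, stood at 51.6 ± 31.6 CPM (SD) in MYC animals (n = 4) and 18.2 ± 25.8 CPM (SD) in SHH animals (n = 2). Of 9 upstream regulators tested, 2 fell in MYC and 0 rose (median -0.88), where 0.293% of all genes tested fell and 0.0385% rose. Wnt3, a posteriorising signal of the early embryo, stood at 0, 0, 0 and 0.0409 CPM in MYC and at 21.0 and 42.3 CPM in SHH (edgeR adjusted p = 0.0172). T (Brachyury), a mesoderm and notochord factor, stood at 0, 0, 0 and 0.0273 CPM in MYC and at 4.05 and 11.2 CPM in SHH (edgeR adjusted p = 0.0455). Both SHH animals, whose HOX clusters differed, lay above all MYC animals for both genes, an order that 15.7% of all genes tested had. Of the retinoic acid pathway 0 of 14 passed (median 1.12); Crabp1, a retinoic acid binding protein, was at 0, 1144, 0 and 106 CPM in MYC animals and at 0 in both SHH animals. Of Polycomb and Trithorax genes 0 of 24 passed (median -0.11); Ezh2, the H3K27 methyltransferase, averaged 40.5 ± 4.21 CPM over MYC animals (SD, n = 4) against 69.7 ± 15.1 CPM over SHH animals (SD, n = 2), with an edgeR adjusted p of 0.411.

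Of 14 members tested from a fixed list of anterior patterning factors, 1 fell in MYC and 0 rose (median -0.25). En2, a midbrain-hindbrain boundary factor, stood at 0, 0, 0 and 0.0545 CPM in MYC and at 10.4 and 17.8 CPM in SHH (edgeR adjusted p = 0.0399). Otx2, a forebrain and midbrain factor, was at 0 in every MYC animal and at 49.5 and 19.6 CPM in SHH (adjusted p = 0.0846). En1 stood at 20.8 and 140 CPM in SHH and at 3.09 ± 4.06 CPM in MYC (n = 4). Dlx5 went the other way, at 69.9, 3.80, 0 and 22.8 CPM in MYC and at 0 and 2.19 CPM in SHH (edgeR adjusted p = 0.441). Dlx1, Dlx2, Dlx6, Six3 and Six6, named here after their values were seen, also had positive log2 fold changes (1.93 to 10.9), and none passed. Leaving out any 1 of the 6 animals ended the calls of Wnt3, T and En2: the edgeR adjusted p was 0.0568 to 0.196 for Wnt3, 0.0690 to 0.563 for T and 0.0687 to 0.359 for En2. With sequencing runs as a covariate it was 0.0901, 0.114 and 0.0933, and for T it was 0.0545 in cells with at most 1 haematopoietic marker and 0.0669 without the low count filter.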

How the data were processed

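Single-cell RNA was counted in 7 tumours after a 7-AAD sort for live cells. The deposited tables hold raw UMI counts per gene and barcode, made by the authors with Cell Ranger 2.0.2 and mm10, per the submitters' processing notes. Barcodes were kept with at least 500 UMIs, 200 genes and at most 20% mitochondrial UMIs; the highest Scrublet scores (scanpy 1.11.5), 0.8% per 1000 cells, were removed as doublets in libraries of at least 200 cells. MYC replicate 5 and SHH replicate 1 were sequenced in 2 runs, per the labels. Counts of Ptprc-negative cells were summed per animal and tested with edgeR 4.0.16 (quasi-likelihood F test with TMM factors and the filterByExpr default) under R 4.3.3, with Benjamini-Hochberg adjustment over all genes and a threshold of 0.05; the site test used libraries. DESeq2 1.42.0 was an alternative, with other filters, gates and left-out animals. Levels are plain CPM of summed counts. Intervals are 95% (Poisson, Wilson or exact binomial), and the floor for a gene at 0 is 3 counts; both cover counting error only. Annotation was GENCODE M21. Named HOX genes were those called in a test or with at least 10 CPM and 10 UMIs in their highest animal; of each fixed list, called members and up to 3 of highest mean CPM. The members and lists were chosen with earlier results of these data known. The edgeR script was tested on simulated counts. Some single genes are not reported here.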

Additional observations from a re-analysis of the deposited data

Results flagged for a closer look

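Hoxb5os was at 10.0 CPM in the animal of MYC replicates 2 and 3 and at 0 in the other 3 MYC animals, and Dixon's ratio flagged that animal. With 3 values tied at 0 the ratio is 1 whatever the size of the other value, so the flag does not measure how far it lay. All 37 of its UMIs there came from MYC replicate 3, at 23.3 CPM in that library. Of 19 values checked over the 4 MYC animals this was the 1 that passed. Hoxb5os was among them only because this animal reached the 10 CPM needed for naming, so a chance rate of about 1 in 20 does not apply to it.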

How the results depend on the processing

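Genes passing between subgroups numbered 43 with the main settings, 922 with DESeq2, 403 in cells with at most 1 haematopoietic marker, 79 with MYC replicates 2 and 3 separate, 2 with sequencing runs as a covariate, and 0 to 3 when an animal was left out. HOX rows among them numbered 0, but 4 with DESeq2 and 2 in cells with at most 1 marker. Between sites 0 genes passed, but 350 with DESeq2 and 959 without the low count filter, where 1 HOX row passed. Between Ptprc classes 0 passed, but 2102 with DESeq2, 1 without the filter, 683 with the 12-marker gate, 2752 with all 6 animals, and 0 to 795 when an animal was left out (795 without MYC replicate 4). HOX rows were 6, 0, 0, 8 and 0 to 2. With the 12-marker gate, cells with at most 1 marker were set against cells with at least 2, in place of the Ptprc classes. In cells with at most 1 marker the MYC mean was 313 CPM for all HOX rows and 171 CPM for HOXC, against 173 and 89.3 CPM. Hoxc8 between sites (log2 fold change 0.21) was -0.70 with the 12-marker gate and -1.59 to 1.02 with a library left out. Hoxb4 between Ptprc classes (0.14) was -0.44 to 1.40 with an animal left out (-0.43 without MYC replicate 4). The cause of these shifts was not tested. No paired analysis was possible because the replicate numbers of MYC and SHH are names given in accession order and each animal has 1 subgroup. This concerns the subgroup test; the Ptprc test was paired by animal. Without that animal block, the Ptprc comparison called 0 of 10675 genes. Depth limits low members: 3 counts are 0.0409 CPM in MYC replicate 5 and 1.89 CPM in MYC replicate 3. Scaling by library size alone moved the median log2 fold change of all genes from 0.06 to -0.10 between subgroups and from 0.02 to 0.18 between Ptprc classes.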
